A study of Arabidopsis thaliana with 18 samples.

Results

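The nuclear genes for the light-harvesting proteins and the photosystem subunits of Arabidopsis thaliana were followed in the first leaf pair of WT plants and of 2 lines overexpressing the PINOID protein kinase (PID). Members were chosen by their locus identifiers, and 42 of the 28642 loci in the deposited tables belong to the group. They comprise 6 LHCA genes for the antenna of photosystem I, 14 LHCB genes for the antenna of photosystem II, PSBS, 12 PSA genes for photosystem I subunits and 9 PSB genes for photosystem II subunits. All 42 passed the filter on low counts. The study asked how leaf growth responds when auxin homeostasis is altered by PID overexpression. Its groups were WT (Col-0), P10 and P21, the last pair carrying a 35S::PID transgene in the Col-0 background, each at 9 and 16 days after stratification (DAS). According to the labels, leaves were at the proliferation stage at 9 DAS and at the expansion stage at 16 DAS. All plants were grown without any treatment in long days on Murashige and Skoog medium with added sugar. The 35S promoter of a plant virus drives a gene in most tissues, so expression of the transgene is not aimed at 1 cell type, and P10 and P21 are each a single transgenic line. Values existed for 3 libraries per group, or 2 in P21, where replicates 2 and 3 had values at either day. The comparisons of P10 and of P21 with WT share their WT libraries.

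Photosystem II oxidises water at a manganese cluster shielded by the extrinsic proteins PsbO, PsbP and PsbQ, and photosystem I passes electrons from plastocyanin to ferredoxin. Lhcb proteins form the trimers (Lhcb1, Lhcb2 and Lhcb3) and the minor monomers (Lhcb4, Lhcb5 and Lhcb6) around photosystem II, while Lhca proteins form a belt around photosystem I. The reaction centre cores are encoded in the plastid genome and were not analysed here. Nuclear photosynthesis genes are known to be switched on by light and by the GLK transcription factors, to be gated by the circadian clock and to be held down by sugar.

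Reads that matched 1 gene only (unique gene reads) ranged from 1193042 to 4695692 per library, with the lowest total in P10 replicate 1 at 16 DAS. Levels below are CPM, the counts of such reads normalised to library size with TMM factors, listed in the order of the replicate numbers. PID itself was at 3.19 to 5.92 CPM in WT, at 446 to 522 CPM in P10 at 9 DAS and 748 to 882 CPM at 16 DAS, and at 940 to 961 CPM in P21 at 9 DAS and 368 to 631 CPM at 16 DAS. Markers of other organs (5 genes) summed to at most 4.73 CPM in any library. A gene was called changed when edgeR's quasi-likelihood test gave an adjusted p under 0.05 over the 16499 genes tested and the log2 fold change (log2FC) was beyond 0.75 in size. Nothing in the labels says that replicates came from separate cultures, so p-values measure the spread between these libraries.

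The 5 LHCB1 copies include the most abundant member, and their coding sequences are alike enough that reads are shared between them. LHCB1.1 (AT1G29920), LHCB1.2 (AT1G29910) and LHCB1.3 (AT1G29930) lie within 6769 bases of chromosome 1, and LHCB1.4 (AT2G34430) and LHCB1.5 (AT2G34420) lie 1187 bases apart on chromosome 2. Over their 804 coding bases, LHCB1.1 and LHCB1.2 differ at 35 positions (95.6% identity), LHCB1.1 and LHCB1.3 at 31 (96.1%) and LHCB1.2 and LHCB1.3 at 29 (96.4%). Depending on the copy, 12.9 to 23.0% of its 50-base windows also occur elsewhere in the genome, and 10.3 to 22.3% of its reads did not match uniquely. The 60-base stretch with the most differences between the 5 copies is shown because reads that cross such positions are what assigns a read to 1 copy. It was read from the TAIR10.1 assembly in the direction of transcription, at chr1:10475347-10475406 on the minus strand for LHCB1.1, chr1:10472701-10472760 on the minus strand for LHCB1.2, chr1:10478557-10478616 on the plus strand for LHCB1.3, chr2:14525301-14525360 on the plus strand for LHCB1.4 and chr2:14522974-14523033 on the minus strand for LHCB1.5. Capitals mark the 12 positions at which the copies are not all identical, and the stretch lies in the coding exon of each gene.
LHCB1.1: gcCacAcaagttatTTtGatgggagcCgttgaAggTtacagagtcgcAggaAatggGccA
LHCB1.2: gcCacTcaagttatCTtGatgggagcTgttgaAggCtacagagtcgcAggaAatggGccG
LHCB1.3: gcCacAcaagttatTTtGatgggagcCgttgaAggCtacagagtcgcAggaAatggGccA
LHCB1.4: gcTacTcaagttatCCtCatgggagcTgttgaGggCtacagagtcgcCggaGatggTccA
LHCB1.5: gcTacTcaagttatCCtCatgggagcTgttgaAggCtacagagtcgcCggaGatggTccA

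Promoters are shown for 1 LHCB1 copy of each chromosome that fell between the days (LHCB1.1 and LHCB1.4) and for 2 photosystem I genes that were among the lowest in P10 at 16 DAS (PSAF and PSAK). Each is the 250 bases before the gene start in the RefSeq annotation of TAIR10.1, from chr1:10475970-10476219 on the minus strand, chr2:14524357-14524606 on the plus strand, chr1:11216142-11216391 on the minus strand and chr1:10721933-10722182 on the plus strand. They were picked among promoters that hold a searched motif. Capitals mark matches to the motifs searched.
LHCB1.1: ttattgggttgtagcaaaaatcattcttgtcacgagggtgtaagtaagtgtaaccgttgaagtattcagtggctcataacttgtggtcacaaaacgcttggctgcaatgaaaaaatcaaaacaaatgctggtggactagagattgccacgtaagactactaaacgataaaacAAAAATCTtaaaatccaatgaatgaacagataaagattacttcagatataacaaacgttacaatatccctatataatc
LHCB1.4: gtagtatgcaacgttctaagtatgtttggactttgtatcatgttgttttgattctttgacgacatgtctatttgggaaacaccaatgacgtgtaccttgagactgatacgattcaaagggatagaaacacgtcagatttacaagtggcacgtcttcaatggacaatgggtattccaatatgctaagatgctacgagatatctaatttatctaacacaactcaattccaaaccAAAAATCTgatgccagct
PSAF: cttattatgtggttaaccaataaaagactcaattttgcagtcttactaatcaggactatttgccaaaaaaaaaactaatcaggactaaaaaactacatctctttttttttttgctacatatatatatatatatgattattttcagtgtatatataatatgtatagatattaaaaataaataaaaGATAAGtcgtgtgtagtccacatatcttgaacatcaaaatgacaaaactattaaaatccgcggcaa
PSAK: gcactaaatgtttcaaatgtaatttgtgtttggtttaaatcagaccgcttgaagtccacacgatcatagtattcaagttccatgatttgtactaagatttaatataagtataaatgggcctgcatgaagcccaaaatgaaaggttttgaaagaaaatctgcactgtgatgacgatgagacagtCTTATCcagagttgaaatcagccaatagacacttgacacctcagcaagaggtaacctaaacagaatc

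Both LHCB1 promoters hold AAAAATCT, a letter string bound by the clock factor CCA1, and the PSAF and PSAK promoters hold the I-box GATAAG, on opposite strands. LHCB1.2, LHCB1.3 and LHCB1.5 hold no AAAAATCT, and they fell between the days as well. In WT and in P10 LHCB1.2 was called lower at 16 DAS, and LHCB1.3 and LHCB1.5 were lower by adjusted p alone. Of the other members called lower in P10 at 16 DAS, PSAH2 and LHCB6 hold the I-box, and PSAN, PSBQ1, PSBW, PSAH1, PSAD2, LHCB2.2 and LHCA2 do not. Counted on both strands over all 42 members, AAAAATCT was in 5 promoters (11.9%, against 6.61% of 27995 promoters), AACAATCT in 1 (2.38% against 1.84%) and the evening element AAAATATCT in 1 (2.38% against 2.36%). The G-box CACGTG was in 8 (19% against 6.45%) and the I-box in 9 (21.4% against 12.3%). When windows were instead taken before the gene starts in the deposited tables, whose starts often differ from RefSeq, the G-box was in 17 members (7.58% of all promoters) the I-box in 20 (12.8%), AAAAATCT in 8 (6.45%), AACAATCT in 2 (1.86%) and the evening element in 0 (2.26%). A match is a string of letters and not a shown binding site.

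By RPKM (a level corrected for gene length and library size, deposited by the authors from total reads, averaged here over libraries), the members were among the most abundant transcripts of these leaves. In WT, 37 of the 42 were among the 100 genes with the highest mean RPKM at 9 DAS and 38 at 16 DAS. LHCB1.3 had the highest level of all genes at 9 DAS in WT (25990 RPKM) and ranked 2 at 16 DAS (14838 RPKM ± 2046 SD, n = 3). The lowest member was LHCB4.3 (AT2G40100), also known as LHCB8 and atypical in lacking part of the C-terminus of other Lhcb4 proteins, at 13.7 RPKM at 9 DAS and 45.0 RPKM at 16 DAS. LHCA5 (AT1G45474) and LHCA6 (AT1G19150), which link photosystem I to the NDH complex, followed at 109 and 116 RPKM at 9 DAS and at 144 and 180 RPKM at 16 DAS. Median levels over the 42 members were 2282 RPKM in WT, 1678 RPKM in P10 and 2411 RPKM in P21 at 16 DAS, and 2390, 2565 and 2601 RPKM at 9 DAS.

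Together the members took 17.9% ± 1.89 (SD, n = 3) of all gene reads in WT at 9 DAS, 18.3% ± 2.00 in P10 and 17.6% ± 3.66 (n = 2) in P21. At 16 DAS the share was 13.3% ± 0.939 in WT, 10.7% ± 1.21 in P10 and 15.6% ± 1.3 (n = 2) in P21. No P10 library, at 9.93 to 12.1%, reached the lowest WT library at 12.7%, and both P21 libraries, at 14.6 and 16.5%, lay above all 3 WT libraries at 16 DAS. At 9 DAS the ranges of the 3 genotypes overlapped. An exact permutation test of 3 against 3 libraries cannot go below p = 0.10, so no test is given. The LHCB genes were the class with the largest share, at 10.9% in WT at 9 DAS and 6.29% at 16 DAS, against 5.50% in P10 and 8.06% in P21 at 16 DAS.

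**Figure D1:**
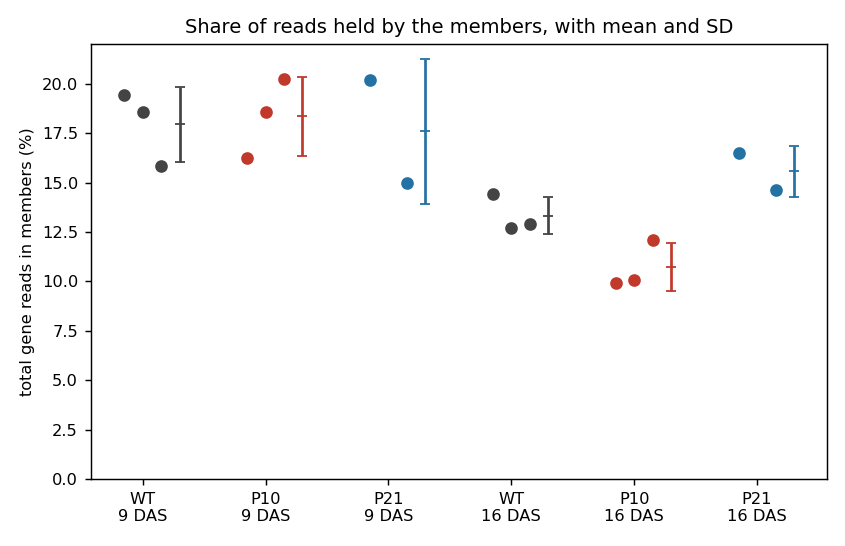
Share of all gene reads that fell on the 42 members, in percent, for each library by genotype and day; points are libraries, and bars show the mean and SD. At 16 DAS P10 (9.93 to 12.1%) lies below WT (12.7 to 14.4%) and P21 (14.6 and 16.5%) above it.

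In P10 leaves at 16 DAS the photosystem genes were lower than in WT in most members. Of the 42 members, 11 were called lower and none higher, where 7.69% of all genes tested were called lower and 8.1% higher (15.8% in all). By adjusted p alone 30 members were lower, against 12.1% of all genes. The median log2 fold change was -0.62 over the members and 0.02 over all genes tested, 40 members were below 0, and 36 had all 3 P10 libraries below all 3 WT libraries, as did 20% of all genes. In whole leaves, fewer mesophyll cells and less transcript per cell cannot be told apart. The called members were 6 of 12 PSA genes, 2 of 9 PSB genes, 2 of 14 LHCB genes and 1 of 6 LHCA genes, and class medians ran from -0.77 (PSA) over -0.62 (LHCB) and -0.60 (PSB) to -0.55 (LHCA).

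**Figure D2:**
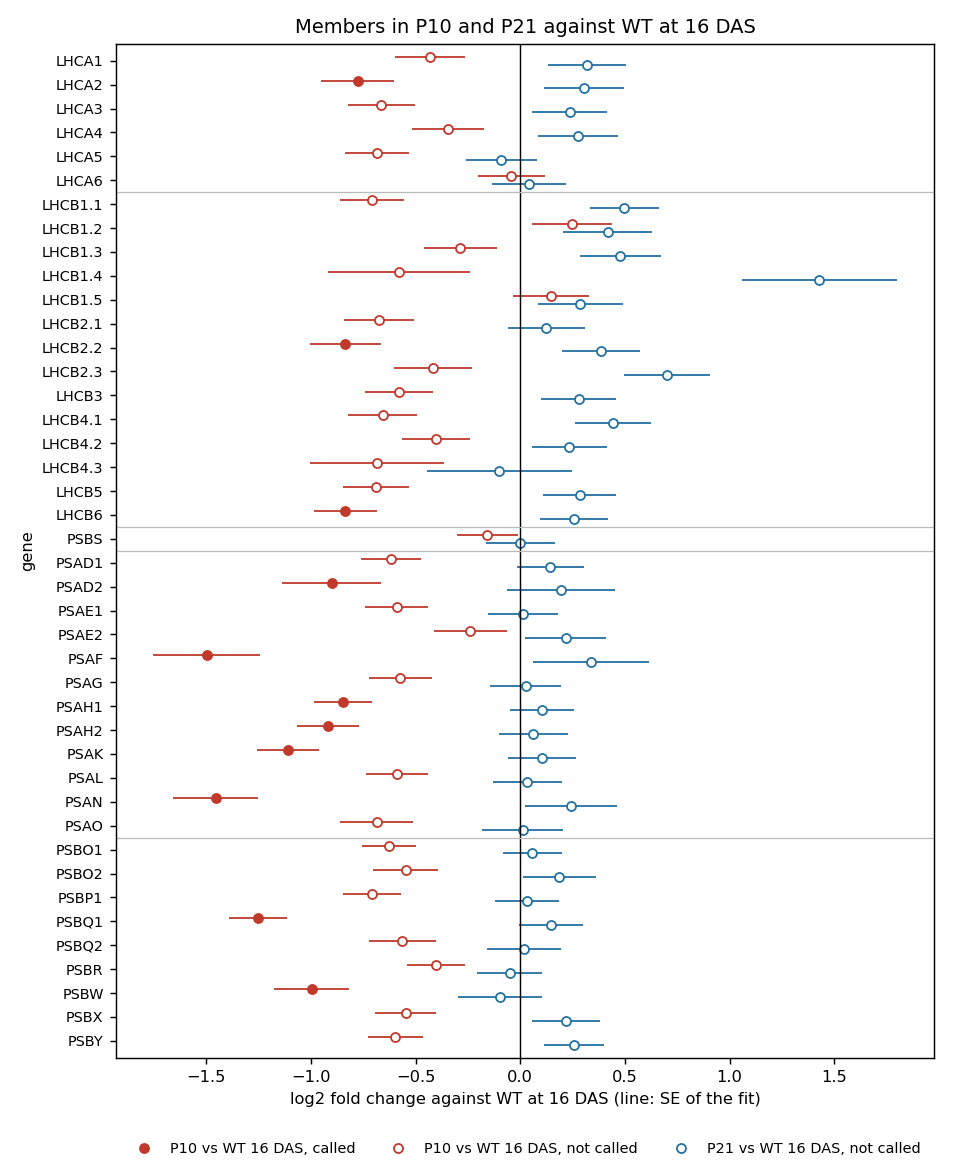
Log2 fold change of each of the 42 members against WT at 16 DAS in P10 and P21, with the standard error of the edgeR fit as bars; filled symbols were called changed. P10 values run from -1.50 (PSAF) to 0.25 (LHCB1.2), and no P21 value is filled.

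The pair with the largest differences, PSAF and PSAN, belongs to the lumen side of photosystem I, where plastocyanin docks. PSAF (AT1G31330) encodes the subunit that binds plastocyanin on the lumen side. It was at 943, 777 and 1854 CPM in P10 against 3584, 3312 and 3203 CPM in WT (log2FC -1.50, SE 0.25, adjusted p = 0.00067). PSAN (AT5G64040), the small lumenal subunit beside it, was at 831, 626 and 1385 CPM against 2637, 2651 and 2504 CPM (-1.45, SE 0.20, adjusted p = 5.3e-05). In both genes P10 replicate 3 was well above the other P10 libraries but below every WT library. PSAD2 (AT1G03130), 1 of 2 genes for the stromal subunit that holds ferredoxin, was at 394, 303 and 704 CPM against 1024, 814 and 779 CPM (-0.90, SE 0.24, adjusted p = 0.011), again with replicate 3 nearest to WT. Its partner PSAD1 was at -0.62, SE 0.14 on the log2 scale.

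The photosystem I genes PSAK, PSAH1 and PSAH2 were also called lower. PSAK (AT1G30380), a membrane subunit at the antenna edge, was at 1107, 1075 and 1385 CPM in P10 against 2785, 2535 and 2368 CPM in WT (log2FC -1.11, SE 0.15, adjusted p = 3.0e-05). PSAH1 (AT3G16140) and PSAH2 (AT1G52230) encode the subunit that receives mobile Lhcb trimers. PSAH2 was at 933, 1027 and 1149 CPM against 2149, 1994 and 1736 CPM (-0.92, SE 0.15, adjusted p = 0.0002), and PSAH1 at 288, 317 and 353 CPM against 587, 540.1 and 596 CPM (-0.85, SE 0.14, adjusted p = 0.00024). In these 3 genes the P10 libraries lay close together and well below every WT library. PSAH1 is the less certain, because 46.0% of its reads did not match uniquely, but with total reads its log2 fold change was -0.81.

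Among photosystem II genes, PSBQ1 and PSBW were called. PSBQ1 (AT4G21280) encodes an extrinsic protein of the water-splitting side and was at 821, 944 and 894 CPM in P10 against 2267, 2041 and 2023 CPM in WT (log2FC -1.25, SE 0.14, adjusted p = 4.1e-06). It showed no P10 library that stood apart, and every P10 library was below every WT library by more than the spread of either group. PSBW (AT2G30570), a small membrane subunit that stabilises the supercomplex with the antenna, was at 1588, 1526 and 2299.9 CPM against 3983, 3595 and 3224 CPM (-1.0, SE 0.18, adjusted p = 0.00055). All 9 PSB genes passed by adjusted p alone, and the other 7 lay between -0.71 (PSBP1, an extrinsic protein) and -0.40 (PSBR) on the log2 scale.

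**Figure D3:**
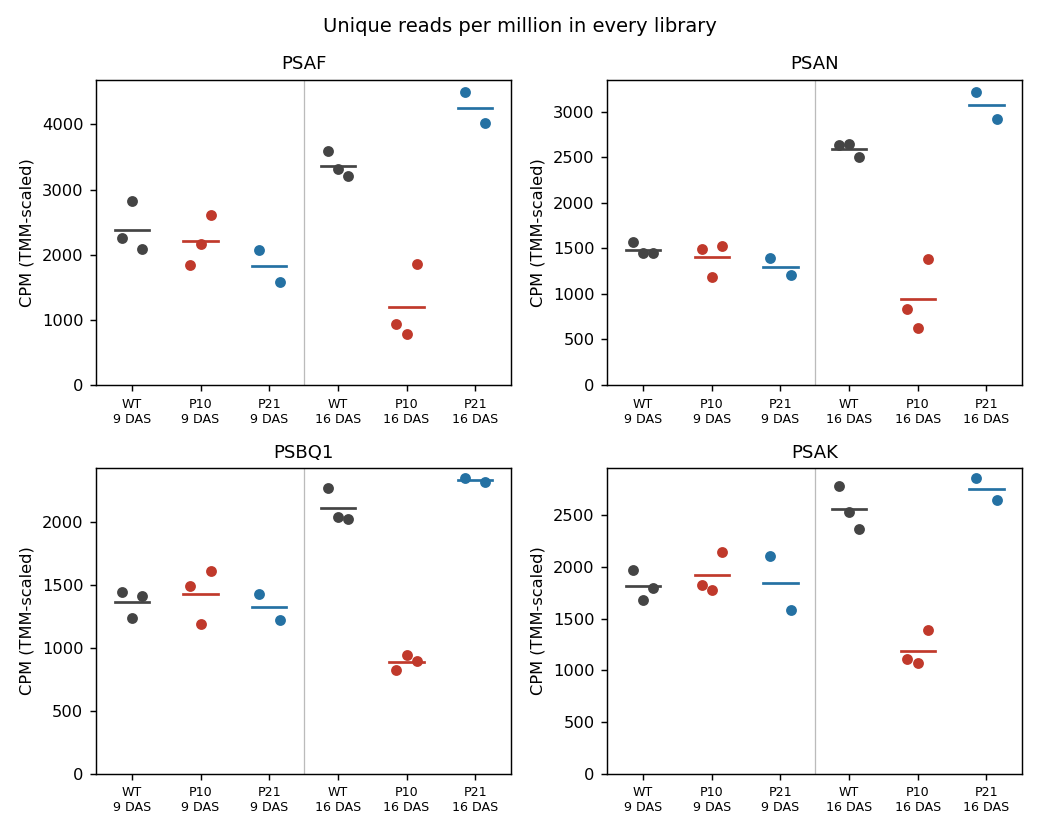
CPM of PSAF, PSAN, PSBQ1 and PSAK in every library by genotype and day; points are libraries and bars are group means. At 16 DAS all P10 points lie below all WT and P21 points, with PSAF at 777 to 1854 CPM in P10 and 3203 to 3584 CPM in WT.

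Of the antenna genes, LHCB6, LHCB2.2 and LHCA2 were called. LHCB6 (AT1G15820) encodes CP24, the minor antenna protein at the M-trimer, and was at 2311, 2294 and 2990.4 CPM in P10 against 4916, 4496 and 4139.5 CPM in WT (log2FC -0.84, SE 0.15, adjusted p = 0.00048). LHCB2.2 (AT2G05070) encodes a trimer protein that is phosphorylated in state transitions and was at 1230.5, 1150.5 and 1604 CPM against 2622, 2119.6 and 2375 CPM (-0.84, SE 0.17, adjusted p = 0.0014). Both genes were lower in all P10 libraries than in any WT library. The eleventh called member, LHCA2 of the photosystem I belt, was at -0.78, SE 0.17 on the log2 scale. LHCB2.1 (AT2G05100), at 1936, 1846 and 2097 CPM against 3409.7, 2788 and 3191 CPM, passed by adjusted p alone (-0.68, SE 0.17, adjusted p = 0.0061), whereas LHCB2.3 (AT3G27690), at 922, 1109 and 1356 CPM against 1561, 1459 and 1500.1 CPM, did not (-0.42, SE 0.19, adjusted p = 0.12). LHCB2.1 and LHCB2.2 share 96.6% of their coding bases and 41.1 and 41.8% of their reads were not unique, so they are also given as a family. With total reads summed over the 3 LHCB2 genes, P10 was at 5933, 5796 and 7180.4 CPM and WT at 11262, 9396 and 10444 CPM (log2FC -0.72, SE 0.17, adjusted p = 0.0042), a difference that passed by adjusted p alone.

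Of the 5 LHCB1 copies, 1 was lower in P10 by adjusted p alone and none was called. LHCB1.1 was at 4268, 4402 and 4761 CPM in P10 against 8456, 6850.4 and 6648 CPM in WT (log2FC -0.71, SE 0.15, adjusted p = 0.0022), which passed by adjusted p but missed the fold threshold with unique reads and met it with total reads (-0.77). LHCB1.4 was at 682, 774 and 635 CPM against 1162, 949.8 and 1014 CPM (-0.58, SE 0.34, adjusted p = 0.25), without overlap but with a large error. The remaining copies overlapped between the genotypes. LHCB1.2 was at 4749, 5324 and 5886 CPM against 5349, 4079 and 4024 CPM (0.25, SE 0.19, adjusted p = 0.39). LHCB1.3 was at 10444, 10600.0 and 15725 CPM against 17527, 13853 and 13445 CPM (-0.29, SE 0.17, adjusted p = 0.26). LHCB1.5 was at 6177, 6149 and 7455 CPM against 6719, 5349.8 and 5815 CPM (0.15, SE 0.18, adjusted p = 0.62). These 3 did not pass the test in either direction, and the LHCB1 total, at 29941, 30868 and 38999.5 CPM in P10 against 46518, 36384 and 36494 CPM in WT, did not pass either (-0.26, adjusted p = 0.31).

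The copies accordingly took different shares of the LHCB1 reads. LHCB1.1 held 16.1% ± 1.4 (SD, n = 3) of total LHCB1 reads in P10 at 16 DAS and 22.8% ± 0.435 in WT. Total reads include those that did not match 1 copy only. LHCB1.2 held 16.6% ± 1.08 in P10 and 12% ± 0.271 in WT, and LHCB1.5 held 22.4% ± 0.847 and 17.3% ± 0.954. The P10 and WT ranges did not overlap for any of these 3 shares, and P21 at 22.9, 11.5 and 15.2% was nearer to WT in each. The share of LHCB1.4 was 2.42% in P10, 3.01% in WT and 5.85% in P21. LHCB1.3 held 42.4, 44.9 and 44.6% in the same order.

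**Figure D4:**
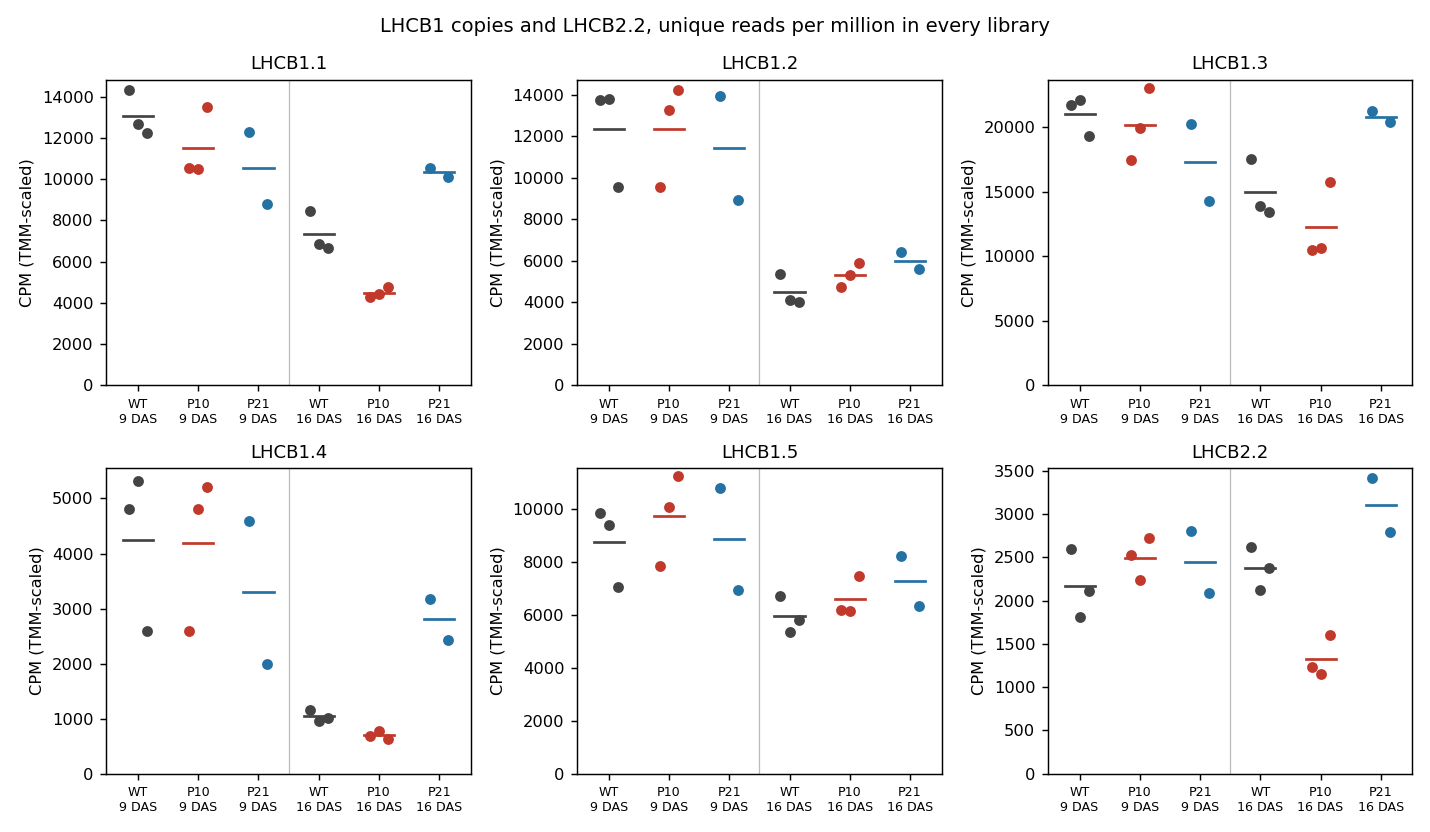
CPM of unique reads of LHCB1.1 to LHCB1.5 and of LHCB2.2 in every library by genotype and day; points are libraries and bars are group means. LHCB1.2 at 16 DAS is at 4749 to 5886 CPM in P10 and 4024 to 5349 CPM in WT, while LHCB1.1 is at 4268 to 4761 CPM in P10 and 6648 to 8456 CPM in WT.

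In P10 at 16 DAS 12 members did not pass by adjusted p, among them LHCB2.3 and 4 LHCB1 copies given above. PSBS (AT1G44575), the pH sensor of nonphotochemical quenching, was at 2916, 3241 and 3088 CPM in P10 and 3316, 3665 and 3325 CPM in WT (-0.16, SE 0.15, adjusted p = 0.49), and every P10 library was below every WT library. LHCA6 was at 222, 282 and 273 CPM and 261, 303 and 238 CPM (-0.04, SE 0.16, adjusted p = 0.88), with overlap. LHCB4.3 was at 59.1, 51.0 and 67.4 CPM and 85.8, 95.8 and 104 CPM (-0.68, SE 0.32, adjusted p = 0.15), lower in each P10 library. Also not passing were LHCA1 (-0.43, SE 0.17, adjusted p = 0.071), LHCA4 (-0.34, SE 0.17, adjusted p = 0.16), LHCB4.2 (-0.40, SE 0.16, adjusted p = 0.078) and PSAE2 (-0.24, SE 0.17, adjusted p = 0.36). LHCA5, by contrast, was at 135, 171 and 163 CPM against 265, 249 and 241 CPM and passed by adjusted p alone (-0.68, SE 0.15, adjusted p = 0.0032).

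Genes that act next to the photosystems were counted from lists. Over all genes tested, 7.69% were called lower in P10 at 16 DAS and 8.1% higher. Of 14 tested genes for electron transport and the ATP synthase, 6 were called lower in P10 at 16 DAS and none higher, led by PETM, a small cytochrome b6f subunit (log2FC -1.52), the leaf ferredoxins FD2 (-1.49) and FD1 (-1.15) and the ATP synthase subunit ATPD (-1.10). This list summed to 12053 to 13598 CPM in P10 and 20955 to 23193 CPM in WT. Of 14 assembly and regulation genes 1 was called lower (CURT1B, which bends thylakoid margins, -0.85), as was 1 of 7 genes for ELIP and one-helix proteins (OHP1, -0.79) and 1 of 7 regulators, GLK2, an activator of nuclear photosynthesis genes (-0.87). Of 11 clock genes, ELF3 was called higher (1.75). Markers of other leaf cell types moved too, with the guard cell genes KAT1 (-0.96) and MYB60 (-0.95) called lower among 8. That list summed to 893 to 1008 CPM in P10 and 1001 to 1044 CPM in WT, none of its markers was at 0, and its part in the result was not tested.

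The count of members lower in P10 at 16 DAS moved with single libraries and with another test. P10 replicate 3 was the highest of the 3 P10 libraries in 35 members, and without it 18 members were called lower instead of 11. Without P10 replicate 2 the count was 8, with LHCA2, LHCB2.2 and PSAD2 lost. Without P10 replicate 1 it was 10, with LHCA2 lost. Without WT replicate 1 of 16 DAS it was 9, with LHCA2 and PSAD2 lost. Without WT replicate 2 or 3 of 16 DAS it was 13 or 14. With limma on log2(RPKM + 1), which changes the test, the reads and the scaling together, 6 members were called lower and none higher, the median of all genes moved by 0.16, and 72.3% of the genes it called were higher, against 51.3% in the main test. With DESeq2-type or upper-quartile factors, or TMM factors set without the members, edgeR called the same 11 members each time.

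In P21 leaves at 16 DAS no member passed the test. None of the 42 members was called by edgeR, where 0.127% of all genes were, and none passed by adjusted p alone. At an unadjusted p under 0.05 there were 5, against 9.06% of all genes. The median log2 fold change was 0.21 over the members and 0.00 over all genes, 38 members were above 0, and in 20 both P21 libraries were above all WT libraries, as in 13.7% of all genes. The largest value was that of LHCB1.4, at 3181 and 2428 CPM in P21 against 1162, 949.8 and 1014 CPM in WT (1.43, SE 0.37, adjusted p = 0.2), which DESeq2 called higher, as did edgeR when fitted to these 2 groups alone. LHCB2.3 followed at 2659 and 2242 CPM against 1561, 1459 and 1500.1 CPM (0.70, SE 0.20, adjusted p = 0.2). Both P21 libraries were above all WT libraries for either gene. LHCB1.1 was at 10561 and 10104 CPM in P21 (0.50, SE 0.17, adjusted p = 0.3). The 4 members that were lowest in P10 were at 0.34 (PSAF), 0.24 (PSAN), 0.14 (PSBQ1) and 0.10 (PSAK) in P21. No gene of the neighbouring lists was called in P21 at 16 DAS.

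The remaining LHCB1 and LHCB2 copies, the low antenna members and PSBS did not pass the test in P21 at 16 DAS either. LHCB1.3 was at 21233 and 20396 CPM in P21 (0.48, SE 0.19, adjusted p = 0.43), above every WT library. LHCB1.5 was at 8209 and 6341 CPM (0.29, SE 0.20, adjusted p = 0.73) and LHCB2.1 at 3779.6 and 3046 CPM (0.13, SE 0.18, adjusted p = 0.9), both overlapping WT. LHCA5 was at 242 and 231 CPM (-0.09, SE 0.17, adjusted p = 0.93), LHCA6 at 274 and 278 CPM (0.04, SE 0.18, adjusted p = 0.97) and LHCB4.3 at 78.1 and 98.7 CPM (-0.10, SE 0.35, adjusted p = 0.97). These 3 overlapped WT as well. PSBS, at 3508 and 3365 CPM (0.00, SE 0.16, adjusted p = 1), likewise overlapped WT.

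Set directly against P21 at 16 DAS, P10 was lower in members of every class but PSBS. Of the 42 members 24 were called lower in P10 than in P21 and none higher, where 7.32% of all genes were called lower and 7.59% higher (14.9% in all). By adjusted p alone there were 35, against 10.5% of all genes. All 42 were below 0, the median was -0.76 against 0.01 over all genes, and in 39 every P10 library was below both P21 libraries, as in 23.9% of all genes. Called members were 10 of 14 LHCB, 7 of 12 PSA, 4 of 9 PSB and 3 of 6 LHCA genes. LHCB1.4 differed most (P10 682, 774 and 635 CPM, P21 3181 and 2428 CPM, log2FC -2.01, SE 0.37, adjusted p = 0.0027). PSAF was at 4499 and 4016 CPM in P21 (-1.84, SE 0.28, adjusted p = 0.00033), PSAN at 3223 and 2926 CPM (-1.70, SE 0.22, adjusted p = 3.7e-05) and PSBQ1 at 2348 and 2318 CPM (-1.40, SE 0.15, adjusted p = 5.4e-06). For these genes the P10 libraries, given above, were all lower.

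Of the antenna genes, LHCB2.2 was at 3413 and 2788 CPM in P21 (P10 against P21 -1.22, SE 0.19, adjusted p = 0.00014), and LHCB2.3 at 2659 and 2242 CPM (-1.12, SE 0.20, adjusted p = 0.00073). LHCB1.1 was at -1.21, SE 0.17. LHCB4.1 (AT5G01530), which encodes the minor antenna protein CP29, was at 1847, 1958 and 2551 CPM in P10, 4835 and 4238 CPM in P21 and 3591, 3167 and 3267 CPM in WT (-1.10, SE 0.18, adjusted p = 0.00029). Summed over 3 genes, LHCB2 was lower in P10 than in P21 (-1.03, SE 0.18, adjusted p = 0.00065). PSAK was at 2862 and 2643 CPM in P21 (-1.21, SE 0.16, adjusted p = 4.2e-05), and PSAD2 at 1132 and 865 CPM (-1.09, SE 0.26, adjusted p = 0.0064). In all of these genes no P10 library reached a P21 library. The 7 members that did not pass by adjusted p were LHCB4.3 (-0.58), PSAE2 (-0.46), PSBR (-0.35), LHCB1.2 (-0.17), PSBS (-0.16), LHCB1.5 (-0.14) and LHCA6 (-0.09). Of the neighbouring lists, 6 of 14 genes for electron transport and the ATP synthase, 4 of 14 assembly and regulation genes and 1 of 7 regulators (GLK2, -0.76) were called lower in P10 than in P21. They included FD2 (-1.80), PETM (-1.77), FD1 (-1.39) and ATPD (-1.26), and, of the assembly list, CPSRP43, which carries Lhc proteins through the stroma (-1.09), LTD (-0.99) and PSB33 (-0.85). TAP38, the phosphatase of state transitions, was called higher (1.08). Over all genes tested, 7.32% were called lower in this comparison and 7.59% higher. Of 8 markers of other leaf cell types 1 was called higher, SUC2, the sucrose transporter of phloem companion cells (0.88). That list summed to 893 to 1008 CPM in P10 and 697 to 819 CPM in P21, and its part in the result was not tested. With limma on log2(RPKM + 1) 12 members were called lower, the median of all genes moved by 0.19, and 78.4% of called genes were higher against 50.9% in the main test.

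At 9 DAS neither line differed from WT in any member by the test. In P10 edgeR and DESeq2 each called none, where edgeR called 0.339% of all genes, and 2 members had an unadjusted p under 0.05, against 12.2% of all genes. The log2 fold changes ran from -0.19 (LHCB1.1) to 0.53 (LHCB4.3) with a median of 0.10, against 0.01 over all genes, and 3 members had all P10 libraries above all WT libraries and none below (8.42% and 8.72% of all genes). In P21, whose libraries carried another second library index than those of WT and P10 at 9 DAS (line and index cannot be told apart there), both tools called none, where edgeR called 5.39% of all genes, and 4 members had an unadjusted p under 0.05, against 21.5% of all genes. Values ran from -0.38 (PSAF) to 0.84 (LHCB4.3) with a median of 0.05, against 0.02, and 6 members had both P21 libraries above all WT libraries and 2 below (19% and 18.8% of all genes). PSAH1 had the same size of difference in both lines. It was at 321, 274 and 241 CPM in WT, 388, 348 and 399.7 CPM in P10 (0.44, SE 0.14, adjusted p = 0.17) and 403 and 352 CPM in P21 (0.44, SE 0.15, adjusted p = 0.09), and all libraries of both lines were above all of WT. PSBY (AT1G67740), which encodes a small subunit of photosystem II, was at 903, 787 and 914 CPM in WT, 1115, 968 and 1194 CPM in P10 (0.33, SE 0.13, adjusted p = 0.28) and 1168 and 1042 CPM in P21 (0.35, SE 0.14, adjusted p = 0.16), also without overlap. In P21 at 9 DAS, PETM was called lower (-1.01), and 3 of 8 markers of other leaf cell types were called higher (AHA3 1.03, KAT1 0.88 and SUC2 0.83). That list summed to 693 to 713 CPM in P21 and 732 to 824 CPM in WT, and its part was not tested.

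The LHCB1 and LHCB2 copies overlapped between each line and WT at 9 DAS. LHCB1.1 was at 12315 and 8812 CPM in P21 (16 against 9 DAS -0.03, SE 0.18). LHCB1.3 was at 17429, 19948 and 23051 CPM in P10 and 20219.5 and 14309.7 CPM in P21, and LHCB1.5 at 7847, 10073 and 11236 CPM and 10774 and 6949 CPM. Both copies were lower in every P10 library of 16 DAS than of 9 DAS, and in P21 LHCB1.3 was higher and LHCB1.5 overlapped. LHCB2.1 was at 2699, 1800.1 and 2204 CPM in WT, 2595, 2117 and 2828 CPM in P10 and 2945 and 2191 CPM in P21. LHCB2.3 was at 2371, 1520.2 and 2124 CPM in WT and 2644 and 2187 CPM in P21, and LHCB2.2 at 2800.2 and 2093 CPM in P21. From 9 to 16 DAS LHCB2.1 libraries were higher without overlap in WT (0.49, SE 0.17, adjusted p = 0.021) and P21 (0.41, SE 0.20, adjusted p = 0.14) and lower in P10 (-0.36, SE 0.17, adjusted p = 0.092). LHCB4.3 was at 51.6, 18.3 and 32.0 CPM in P10 and 37.6 and 47.9 CPM in P21 at 9 DAS, and LHCA5 at 158, 124 and 174 CPM and 153 and 139 CPM. LHCA6 was at 181 and 195 CPM and PSBS at 2439.5 and 2639 CPM in P21. At 9 DAS LHCB4.3, LHCA6 and PSBS lay above all WT libraries in both P21 libraries without passing the test.

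Between 9 and 16 DAS the photosystem and antenna genes of WT leaves went in different directions. Of the 42 members 7 were called higher and 3 lower at 16 DAS, where 18.6% of all genes were called higher and 17.3% lower (36% in all), and by adjusted p alone 19 were higher and 6 lower, where 23.9% and 22.3% of all genes were. Without overlap between the days, 24 were higher and 6 lower (27.8% and 26.7% of all genes). The median was 0.34 over the members and -0.04 over all genes tested. All 3 called lower were LHCB1 copies, and the class medians were 0.63 for PSB, 0.49 for PSA, 0.23 for LHCA, -0.13 for LHCB and -0.84 for the 5 LHCB1 copies. WT and P10 libraries of 9 DAS also stand apart by that index from all others, so day and index cannot be told apart in these genotypes. The count of higher members also hung on the scaling. With upper-quartile factors 3 were higher and 3 lower, the median of all genes moved by -0.17, and 39.9% of called genes were higher against 51.8%. With limma on log2(RPKM + 1) 1 was higher and 6 were lower, the median moved by -0.26, and 33% of called genes were higher.

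LHCB1.4 fell the most in WT, from 4814, 5312 and 2598 CPM at 9 DAS to 1162, 949.8 and 1014 CPM at 16 DAS (log2FC -2.02, SE 0.35, adjusted p = 0.00042). LHCB1.2 fell from 13748, 13807 and 9541 CPM to 5349, 4079 and 4024 CPM (-1.46, SE 0.19, adjusted p = 4.5e-06), and LHCB1.1 from 14330.5, 12689 and 12263 CPM to 8456, 6850.4 and 6648 CPM (-0.84, SE 0.15, adjusted p = 0.00013). Libraries of the 2 days did not overlap in these copies. LHCB1.3 was at 21753, 22071 and 19306 CPM at 9 DAS (-0.49, SE 0.17, adjusted p = 0.024) and LHCB1.5 at 9853, 9395 and 7039.8 CPM (-0.56, SE 0.18, adjusted p = 0.017), both lower at 16 DAS by adjusted p alone. The LHCB1 total fell from 75972, 73568 and 59897 CPM to 46518, 36384 and 36494 CPM (-0.81, SE 0.17, adjusted p = 0.00076).

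The members that rose in WT came from both photosystems. LHCB4.3 rose from 21.7, 13.3 and 35.1 CPM to 85.8, 95.8 and 104 CPM (1.99, SE 0.34, adjusted p = 0.00029), PSAH1 from 321, 274 and 241 CPM to 587, 540.1 and 596 CPM (1.04, SE 0.14, adjusted p = 4.2e-06) and LHCA6 from 146, 109 and 161 CPM to 261, 303 and 238 CPM (0.95, SE 0.16, adjusted p = 7.3e-05). The 9 DAS libraries were all below those of 16 DAS in these 3 genes. PSBO2 (AT3G50820), a gene for the manganese-stabilising protein, rose from 1364, 959 and 1378 CPM to 2356, 2172 and 2274 CPM (0.88, SE 0.16, adjusted p = 0.00012), PSBY from 903, 787 and 914 CPM to 1667, 1591 and 1525 CPM (0.88, SE 0.13, adjusted p = 1.6e-05) and PSAN from 1568, 1445 and 1446 CPM to 2637, 2651 and 2504 CPM (0.81, SE 0.20, adjusted p = 0.0026). LHCA5 rose from 159, 123 and 163 CPM (0.76, SE 0.15, adjusted p = 0.00038), close to the fold threshold, and its call was lost in 17 of 28 alternative settings. PSBS, from 2234, 1689 and 2229 CPM, was higher by adjusted p alone (0.74, SE 0.15, adjusted p = 0.00033).

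**Figure D5:**
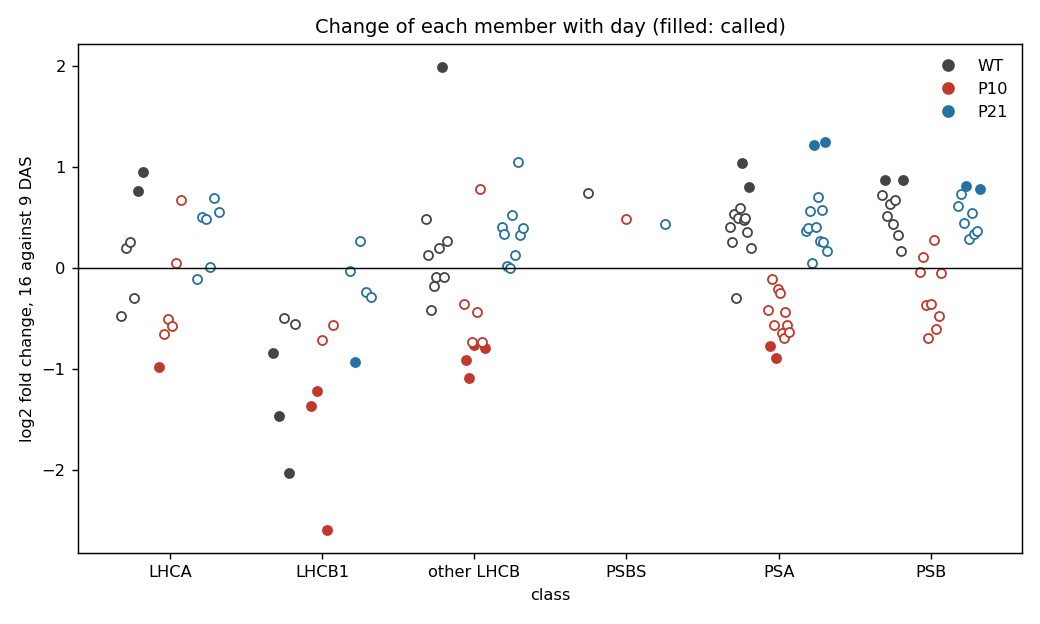
Log2 fold change of each member between 9 and 16 DAS in WT, P10 and P21, arranged by class; filled symbols were called changed. In WT the LHCB1 copies lie lowest (down to -2.02 for LHCB1.4) while the PSA and PSB classes have medians of 0.49 and 0.63, and in P10 the class medians are -0.56 and -0.36.

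In P10 leaves the same interval brought lower levels in most members. Of 42, 10 were called lower at 16 DAS and none higher, where 14.4% of all genes were called lower and 16.6% higher (31% in all), and by adjusted p alone 29 were lower and 2 higher, where 19.2% of all genes were lower and 20.8% higher. Without overlap between the days, 27 were lower and 3 higher (25.3% and 25.2% of all genes). The median was -0.56, against -0.03 over all genes. LHCB genes made up 7 of the 10, with LHCB1.4 falling from 2594, 4804 and 5202 CPM to 682, 774 and 635 CPM (-2.59, SE 0.36, adjusted p = 8.5e-05), LHCB1.1 from 10533, 10493 and 13506 CPM (-1.36, SE 0.15, adjusted p = 6.2e-07) and LHCB1.2 from 9553, 13277 and 14219 CPM (-1.21, SE 0.19, adjusted p = 4.5e-05). All P10 libraries of 16 DAS were below those of 9 DAS in these copies. LHCB2.3 fell from 2655, 1797 and 2777 CPM (-1.09, SE 0.19, adjusted p = 9.0e-05), LHCB2.2 from 2527, 2237 and 2727 CPM (-0.91, SE 0.17, adjusted p = 0.00022) and LHCB6 from 4206, 4031 and 4886 CPM (-0.79, SE 0.15, adjusted p = 0.00025). LHCB4.1 fell from 3141, 3502 and 4131 CPM (-0.76, SE 0.16, adjusted p = 0.00092).

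Of the remaining called members in P10, LHCA1 (AT3G54890), a protein of the photosystem I belt, fell from 6193, 7323 and 7936 CPM to 3187, 3382 and 4309 CPM (-0.98, SE 0.17, adjusted p = 9.9e-05). PSAD2 fell from 742, 747 and 898 CPM (-0.77, SE 0.23, adjusted p = 0.015) and PSAF from 1842, 2165 and 2617 CPM (-0.89, SE 0.25, adjusted p = 0.0098). In PSAF the highest library of 16 DAS, replicate 3, overlapped the lowest of 9 DAS, and its call was lost without P10 replicate 3 at 9 DAS or replicate 2 at 16 DAS. PSBS (0.49, SE 0.15, adjusted p = 0.011) and LHCA6 (0.67, SE 0.16, adjusted p = 0.0022) were the pair that was higher by adjusted p alone, from 2554, 1776 and 2254 CPM and 175, 137 and 177 CPM at 9 DAS. The call of PSAD2 was lost without replicate 3 at 9 DAS and without replicate 1 or 2 at 16 DAS. The count of 10 lower members moved to 17 without replicate 3 at 16 DAS, to 16 lower and 1 higher without replicate 1 at 9 DAS, and to 6 without replicate 3 at 9 DAS or replicate 2 at 16 DAS. With upper-quartile factors it was 17.

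P21, whose libraries of both days share 1 index, showed 4 members higher and 1 lower at 16 DAS, where 12.7% of all genes were called higher and 11% lower (23.7% in all). By adjusted p alone 12 were higher and 1 lower, where 15.5% and 12% of all genes were, and the median was 0.40 against -0.02 over all genes. Without overlap between the days, 25 were higher and 1 lower (32.8% and 33.6% of all genes). PSAN rose from 1390.5 and 1203 CPM to 3223 and 2926 CPM (1.25, SE 0.25, adjusted p = 0.00089), PSAF from 2079 and 1586 CPM to 4499 and 4016 CPM (1.22, SE 0.31, adjusted p = 0.0081), PSBQ1 from 1427 and 1220.4 CPM to 2348 and 2318 CPM (0.82, SE 0.17, adjusted p = 0.0012) and PSBY from 1168 and 1042 CPM to 1894 and 1918 CPM (0.79, SE 0.16, adjusted p = 0.001). LHCB1.2 fell from 13925 and 8912 CPM to 6398 and 5586 CPM (-0.93, SE 0.24, adjusted p = 0.0058). The days did not overlap in these 5 genes. LHCB1.4 was at 4592 and 2001 CPM at 9 DAS and 3181 and 2428 CPM at 16 DAS (-0.23, SE 0.41, adjusted p = 0.71), with overlap, and the LHCB1 total changed by -0.10 on the log2 scale. The name of P21 replicate 2 at 9 DAS bears another lane mark than those of all other libraries used. That replicate was the higher of the 2 in 39 of 42 members. At 16 DAS, where the lane marks do not differ, P21 replicate 2 was also the higher in 39 of 42. The part of the lane was not tested. The count of 5 rested on single libraries, being 13 higher and 0 lower without replicate 2 at 9 DAS, and 1 higher and 1 lower without replicate 3 at 9 DAS. LHCB1.2 was also not called without replicate 3 at 16 DAS. With upper-quartile factors it was 3, the median of all genes moved by -0.12, and 42.8% of called genes were higher against 53.5%. With limma on log2(RPKM + 1) it was also 3, the median moved by -0.31, and 23.2% were higher.

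Clock genes and markers of other cell types were also compared between the days. Of 11 clock genes, 2 were called higher and 3 lower in WT, 2 and 1 in P10, and 1 and 1 in P21. Over all genes, 18.6% were called higher and 17.3% lower in WT. The shares were 16.6% and 14.4% in P10, and 12.7% and 11% in P21. LHY, a morning clock gene, was at 67.1, 3.95 and 344 CPM in WT, 439.9, 11.9 and 116 CPM in P10 and 128 and 451 CPM in P21 at 9 DAS, and at 631 to 959 CPM in every library at 16 DAS. LHCB1.4 at 9 DAS was lowest, at 2001 to 2598 CPM, in the 3 libraries in which LHY was at least 344 CPM, namely WT replicate 3, P10 replicate 1 and P21 replicate 3. This was not particular to LHCB1.4. In the same order, these libraries were the lowest of their group in 27, 23 and 39 of the 42 members. Summed over 11 clock genes, levels were 496 to 1872 CPM in the WT libraries of 9 DAS and 1403 to 1805 CPM at 16 DAS, while PRR5 and ELF4 were each at 0 in some libraries. Summed over 8 markers of other leaf cell types, they were 732 to 824 CPM and 1001 to 1044 CPM, with 5 of the 8 called higher and 2 lower in WT, among them AHA3 (3.10), SUC2 (2.94) and the epidermal gene PDF1 (-5.99). The part of either list in the change of the members was not tested. Among regulators, 5 of 7 tested were called higher in WT, including SIG5 (4.62), GLK1 (1.89) and GLK2 (1.58), and among electron transport and ATP synthase genes 11 of 14 were called higher, among them PGR5 (1.23) and PGRL1A (1.22) of cyclic electron flow, and 1 lower, the plastocyanin gene PETE1 (-1.03). The last list had 2 called higher (PGRL1A 0.80 and PGR5 0.76) and 1 lower (PETE1 -0.85) in P10. In P21 it had 9 higher, led by PETM (2.25) and FD2 (1.93), and 1 lower (PETE1 -0.96).

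Whether the difference of P10 from WT itself changed between the days was tested as an interaction. Of 42 members 19 were called lower, meaning that P10 moved down relative to WT from 9 to 16 DAS, and none higher, where 2.62% of all genes were called lower and 2.08% higher (4.7% in all). The median was -0.77, against -0.01 over all genes, and 41 members were below 0. Day and library index cannot be told apart here either. The 19 were 8 of 12 PSA, 7 of 9 PSB, 3 of 14 LHCB and 1 of 6 LHCA genes, with none of the 5 LHCB1 copies, whose median was -0.22. PSAF (-1.39, SE 0.35, adjusted p = 0.036), PSAN (-1.37, SE 0.28, adjusted p = 0.0085) and PSBQ1 (-1.32, SE 0.20, adjusted p = 0.00065) moved the most. PSAH1 (-1.29, SE 0.20, adjusted p = 0.00082), PSAK (-1.19, SE 0.21, adjusted p = 0.0026) and PSAH2 (-1.12, SE 0.21, adjusted p = 0.0041) followed. Of the antenna, LHCB6 (-1.06, SE 0.21, adjusted p = 0.0062) and LHCB2.2 (-1.04, SE 0.24, adjusted p = 0.016) were called, as was the LHCB2 total (-0.93, SE 0.24, adjusted p = 0.028). PSBW (-0.93, SE 0.25, adjusted p = 0.038) and PSBY (-0.93, SE 0.18, adjusted p = 0.0062) complete the 10 largest, and PSBP1, PSBQ2, PSBO1, PSBO2, PSAD1, PSAG, PSAL, LHCA2 and LHCB2.1 were the other 9. Of the neighbouring lists, 4 of 14 electron transport and ATP synthase genes (ATPD -1.40, PETE2 -1.06, ATPC1 -0.76 and PETC -0.75), 3 of 14 assembly and regulation genes (CURT1B -0.99, STN7 -0.78 and CPSRP43 -0.76) and GLK2 (-1.15) were called lower, as were 3 of 8 markers of other leaf cell types (KAT1 -1.57, MYB60 -1.16 and AHA3 -0.89), whose part was not tested.

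At 9 DAS the levels of these members overlapped between WT and P10, except in PSAH1, PSBY and PSBQ2. PSAK was at 1969, 1678 and 1795 CPM in WT and 1821, 1779.9 and 2148 CPM in P10 at 9 DAS, PSBQ1 at 1442, 1236 and 1409.7 CPM and 1490.3, 1192 and 1606 CPM, and PSAH2 at 1562, 1315 and 1349 CPM and 1548, 1479 and 1828 CPM. Both genotypes overlapped in these 3 genes at 9 DAS. PSAF was at 2252, 2819 and 2088 CPM in WT at 9 DAS, PSAN at 1498, 1187 and 1522 CPM in P10, and PSBW at 3193, 2977 and 2426 CPM in WT and 2302, 2869 and 3048 CPM in P10. With the values given above, the genotypes overlapped likewise. LHCB6 was at 4156, 3608 and 3503 CPM in WT and LHCB2.2 at 2592, 1813 and 2112 CPM, again overlapping with the P10 values given above. The calls for PSAF and PSBW were fragile, being lost in 10 and 14 of 28 alternative settings. The count of 19 fell to 9 without WT replicate 1, P10 replicate 1 (both 16 DAS) or P10 replicate 3 of 9 DAS, to 10 without P10 replicate 2 of 16 DAS and to 11 without WT replicate 2 of 16 DAS. With limma on log2(RPKM + 1) it was 8, the median of all genes moved by 0.18, and 74.4% of called genes were higher against 44.2%.

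Pairs of genes for 1 subunit did not always move alike. Levels within a pair are given as log2 ratios of total reads per kilobase in each library. PSAE1 relative to PSAE2, both for the stromal subunit that helps bind ferredoxin, was 1.52 ± 0.23 (SD, n = 3) in WT at 9 DAS. At 16 DAS it was 2.34 ± 0.06 in WT, 1.99 ± 0.08 in P10 and 2.13 ± 0.02 (n = 2) in P21. PSBQ1 relative to PSBQ2 was -0.09 ± 0.07 in WT, -0.77 ± 0.31 in P10 and 0.03 ± 0.15 in P21 at 16 DAS. LHCB4.1 relative to LHCB4.2 was -0.10 ± 0.05 in WT, -0.35 ± 0.07 in P10 and 0.11 ± 0.03 in P21 at 16 DAS. In each of these 3 pairs every P10 library was below every WT library at 16 DAS. The P21 libraries were also below every WT library for PSAE1 relative to PSAE2. They were above every WT library for LHCB4.1 relative to LHCB4.2 and overlapped WT for PSBQ1 relative to PSBQ2. At 16 DAS P10 and WT overlapped in the pairs PSAD1 and PSAD2, PSAH1 and PSAH2, PSBO1 and PSBO2, and LHCB4.3 and LHCB4.2. PSAH1 relative to PSAH2 was -1.57 ± 0.08 in WT at 9 DAS and -1.12 ± 0.09 at 16 DAS, and at 16 DAS -1.0 ± 0.06 in P10. These ratios are descriptions without a test, since 3 against 3 libraries allow no exact p below 0.10.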

How the data were processed

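RNA from the first leaf pair was sequenced as 50-base paired reads from TruSeq Stranded mRNA libraries. The authors mapped the reads to TAIR10 with CLC Genomics Workbench (v.6, default settings). The deposited counts used here are unique and total gene reads, and the deposited RPKM values were made by the authors from the total reads by gene length and library size. Columns of the authors' own fold changes and Baggerley tests were not used, nor were 405 other per-sample columns.

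The main test was that of edgeR 4.0.16 (R 4.3.3) on unique reads (TMM, filterByExpr, robust quasi-likelihood, 1 mean per genotype and day over 16 libraries). The filter kept 16499 and removed 12143 genes, and p-values took the Benjamini-Hochberg adjustment. The common biological coefficient of variation was 18.8% at 10 residual degrees of freedom. DESeq2 1.42.0 and limma 3.58.1 served as alternatives. Scripts were tested on simulated data. No 2 libraries of a group were identical.

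Given by library are the called members of each comparison (up to 10 by size of change), the LHCB1 and LHCB2 copies, LHCA5, LHCA6, LHCB4.3 and PSBS. Genes of the lists are counted, and some of those called are named, at most 4 per list and comparison. Members and lists were chosen with earlier results of these data known. Coding identity took the place of a planned protein comparison. Promoters and sequences come from RefSeq, and 27996 nuclear loci, with all 42 members, overlapped a RefSeq gene of the same name. P21 replicate 1 was not analysed here.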

Additional observations from a re-analysis of the deposited data

Results flagged for a closer look

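The difference between P10 and WT was not the same at 16 as at 9 DAS in 19 of the 42 members, by the interaction term of the edgeR fit. The change of the log2 difference was -1.39 for PSAF, -1.37 for PSAN, -1.32 for PSBQ1, -1.29 for PSAH1, -1.19 for PSAK, -1.12 for PSAH2, -1.06 for LHCB6, -1.04 for LHCB2.2, -0.93 for PSBW, -0.93 for PSBY and -0.93 for the sum of the 3 LHCB2 genes. In each of these P10 moved down relative to WT. The WT and P10 libraries of 9 DAS share 1 second library index and those of 16 DAS another, so an effect of the index on this change cannot be told apart from that of the day.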

How the results depend on the processing

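Of 55 described fold changes, 31 kept their call in all 28 alternative settings, 24 lost it in at least 1, and none reversed. Counts of called members moved as follows. For P10 against WT at 16 DAS, limma on log2(RPKM + 1) and on log2(RPKM + 0.1) each gave 6 and no fold threshold 30. For P21 against WT at 16 DAS, DESeq2 and a fit to the groups compared each gave 1 (LHCB1.4). For 16 against 9 DAS, upper-quartile factors gave 6 in WT, 17 in P10 and 3 in P21, both forms of limma 16 in P10 and 3 in P21, and no fold threshold 25, 31 and 13. For P10 against P21 both forms of limma gave 12, and for the change of the P10 difference 8, where upper-quartile factors gave 11. The cause was not tested. Leaving out 1 library each gave 0 to 0 members for P10 and for P21 at 9 DAS, 8 to 18 for P10 and 0 to 0 for P21 at 16 DAS, 8 to 12, 6 to 17 and 2 to 13 between days in WT, P10 and P21, 16 to 31 for P10 against P21 and 9 to 24 for the change.

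Replicate numbers were not taken to pair the samples, since not every pair correlated over 0.1. Deviations of same-numbered WT and P10 libraries correlated at -0.118, 0.467 and -0.088 at 9 DAS and at 0.030, 0.005 and -0.001 at 16 DAS. With P21 they correlated at 0.204, 0.333, 0.218 and -0.171 at 9 DAS and at -0.263 to -0.034 at 16 DAS. With the replicate number as a block within each day, 1 member was called for P21 against WT at 9 DAS (LHCB4.3). There were 11 for P10 against WT at 16 DAS, 23 for P10 against P21 and 14 for the change. Between days this fit compared the fitted levels of replicate 1, which P21 lacks, and not the group means. Its counts between days were 6 in WT, 11 in P10 (without PSAD2 and PSAF) and 0 in P21. In P21 LHCB1.2, PSAF, PSAN, PSBQ1 and PSBY were not called. The counts between days therefore cannot show what blocking alone does.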
